A study of Mus musculus with 18 samples.

Results

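The 8 genes described here are the mouse SOCS family, Socs1 to Socs7 and Cish, chosen by their gene symbols from the 43309 genes of an RNA-seq table of bone marrow-derived macrophages. SOCS proteins are feedback inhibitors of cytokine signalling. A cytokine receptor activates its JAK kinases, these phosphorylate STAT transcription factors, and the STATs turn on SOCS genes whose products return to the receptor complex. Each family member has a central SH2 domain that binds phosphotyrosine and a C-terminal SOCS box that recruits elongins and a cullin to form a ubiquitin ligase. Socs1 and Socs3 also carry a short kinase inhibitory region that blocks JAK activity directly, and in macrophages both are known as brakes on interferon and interleukin signalling.

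The cells came from C57BL/6 mice and were grown for 7 days in 10 ng/ml M-CSF with 10% serum. They were then stimulated for 18 h either with 100 ng/ml LPS plus 20 ng/ml interferon gamma (M1) or with 20 ng/ml IL-4 (M2). Each stimulation was applied to cells of 3 genotypes, with 3 libraries in each of the 6 groups and 18 in all. The genotypes were PGRN knockout (PGRN KO, lacking progranulin, a secreted and lysosomal protein encoded by Grn), a myeloid knockout of 14-3-3e (14-3-3e KO, an adaptor protein encoded by Ywhae) and wild-type (WT). There was no unstimulated group, so a level that is higher in M1 cells cannot be told apart from one that is lower in M2 cells. The labels do not give the promoter that drove the myeloid deletion, the age and sex of the mice, or whether the 3 libraries of a group came from separate mice. The p-values therefore measure the spread between these libraries, which may be technical.

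The libraries held 5157638 to 105315616 reads as recovered from the deposited values, a 20.4-fold range of depth. The WT libraries agreed less well with each other (pairwise r across genes of 0.904 to 0.972) than the knockout libraries (0.973 to 0.986). Ribosomal RNA-like genes stood at 14.6% in the third WT M2 library, 1.86% in the second WT M1 library and at most 0.216% in any other. Grn averaged 313 ± 159 normalized counts in PGRN KO M1 cells against 88266 ± 5446 in WT M1 cells, and 26.9 ± 4.62 in PGRN KO M2 cells against 31336 ± 2812 in WT M2 cells (SD, n = 3 each). Ywhae averaged 5647 ± 520 in 14-3-3e KO M1 cells against 9305 ± 480 in WT M1 cells, and 4860 ± 432 in 14-3-3e KO M2 cells against 8739 ± 464 in WT M2 cells. That is a log2 difference of -0.72 ± 0.08 in M1 (limma adjusted p 3.02e-05) and -0.85 ± 0.08 in M2 (adjusted p 7.76e-06), with much of the transcript still counted. Csf1r, the receptor for M-CSF, was read in all 18 libraries, as were the other 6 macrophage markers measured. The 7 summed to 17020 to 19970 CPM in PGRN KO, 5675 to 9676 in 14-3-3e KO and 10320 to 17230 in WT M1 cells. They summed in M2 cells to 13510 to 14930 CPM in PGRN KO, 3117 to 4045 in 14-3-3e KO and 6357 to 6567 in WT. Lyz2 alone averaged 13820, 3550 and 10540 CPM in PGRN KO, 14-3-3e KO and WT M1 cells. In M2 cells of those genotypes it averaged 10840, 1096 and 4198 CPM. Csf1r, Itgam and Mertk averaged higher in 14-3-3e KO than in WT cells in both states, while Cd68 and Fcgr1 averaged lower. Cd14 averaged higher than WT in 14-3-3e KO M1 cells and lower in 14-3-3e KO M2 cells. The part of these sums in the genotype differences below was not tested. The summed level of 6 M1 markers was 737 to 1215 CPM in M1 libraries and 59.3 to 103 CPM in M2 libraries, while that of 6 M2 markers was 96.6 to 183 CPM in M1 libraries and 5106 to 9244 CPM in M2 libraries. Stromal genes were also read in every library. The sum of 6 stromal markers, led by the collagens Col1a1, Col1a2 and Col3a1, was 8388 to 9086 CPM in PGRN KO M1 cells, 17740 to 24900 CPM in 14-3-3e KO M1 cells and 8961 to 18100 CPM in WT M1 cells. In M2 cells it was 7290 to 9171 CPM in PGRN KO, 16450 to 23340 CPM in 14-3-3e KO and 11360 to 17990 CPM in WT. This sum, mostly of the collagens, moved with genotype, and Dcn, Lum and Pdgfra did not all follow it. Its part in the genotype differences below was not tested. The summed markers of T and NK cells, B cells and dendritic cells reached at most 2.41, 12.6 and 8.25 CPM in any library.

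In the GRCm38 annotation (GENCODE M21), Socs1 lies on the minus strand of chr16:10782240-10785536, Socs2 on the minus strand of chr10:95385362-95417180 and Socs3 on the minus strand of chr11:117966079-117970047. Socs4 lies on the plus strand of chr14:47276931-47296102, Socs5 on the plus strand of chr17:87107679-87137839, Socs7 on the plus strand of chr11:97362551-97398542, and Cish on the plus strand of chr9:107296026-107302784. Exons of Cish share 479 bases with an antisense transcript, Gm17041, and 261 bases with a pseudogene, Gm17040, both on the opposite strand. The labels do not say whether reads were counted by strand. Those overlapping genes averaged 35.7 and 2.20 normalized counts over the 18 libraries, against 530 for Cish.

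Promoters were at hand for 4 of the 8 members in RefSeq (GRCm38.p6), each as 300 bases from 250 before to 50 after the start site. Those of Socs2, Socs5, Socs6 and Socs7 were not. The promoters of Cish, Socs3 and Socs1, which answer to JAK-STAT signalling in the textbook scheme, are shown on the strand of the gene, 5′ to 3′. Matches to a STAT or an interferon motif are in capitals.
Cish: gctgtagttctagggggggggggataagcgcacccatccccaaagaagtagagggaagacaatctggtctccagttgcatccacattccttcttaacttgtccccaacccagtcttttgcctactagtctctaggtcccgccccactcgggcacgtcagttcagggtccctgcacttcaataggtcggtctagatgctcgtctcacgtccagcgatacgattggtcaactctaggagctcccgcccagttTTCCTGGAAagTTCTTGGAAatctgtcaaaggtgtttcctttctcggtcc
Socs3: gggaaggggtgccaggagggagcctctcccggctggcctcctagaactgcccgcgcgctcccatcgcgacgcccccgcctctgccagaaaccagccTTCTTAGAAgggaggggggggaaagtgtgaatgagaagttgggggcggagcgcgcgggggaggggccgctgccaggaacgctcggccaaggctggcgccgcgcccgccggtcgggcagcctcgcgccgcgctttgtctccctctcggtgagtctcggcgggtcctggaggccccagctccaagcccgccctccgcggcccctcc
Socs1: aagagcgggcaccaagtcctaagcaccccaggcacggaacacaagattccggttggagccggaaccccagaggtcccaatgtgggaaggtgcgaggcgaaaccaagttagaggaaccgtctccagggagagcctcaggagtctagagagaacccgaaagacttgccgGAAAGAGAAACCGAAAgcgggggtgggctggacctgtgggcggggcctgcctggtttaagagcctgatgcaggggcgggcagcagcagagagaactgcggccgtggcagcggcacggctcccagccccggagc
The Cish window (chr9:107296409-107296708, plus strand) held 2 matches to TTCNNNGAA, the spaced palindrome that STAT dimers bind, at positions 1 to 9 and 12 to 20 from the start site, with the start site as position 1. The Socs3 window (chr11:117969317-117969616, minus strand) held 1 match to the same motif, at positions -154 to -146. The Cish and Socs3 windows lie inside the gene spans given above, so these RefSeq start sites are not the outer ends annotated in GENCODE. The Socs1 window (chr16:10785487-10785786, minus strand) held 2 overlapping matches to a repeat of GAAA with any 2 bases between the copies, which interferon regulatory factors bind, at positions -83 to -74 and -77 to -68. The Socs4 window held no match to these motifs or to TTC and GAA with any 4 bases between them, a spacing preferred by STAT6. Searched on both strands, TTCNNNGAA was present in 8.30% of 32851 RefSeq promoters of this length. The form with 4 bases between was present in 6.95% of them and the GAAA repeat in 3.44%. A match is a run of letters and not a measured binding site.

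All 8 members were read in all 18 libraries, with the lowest level of any at 77.6 normalized counts, and all passed the minimum of 1 normalized count in 3 libraries that left 21336 genes for testing. Levels are given as the authors' normalized counts, which are reads divided by a library size factor, and differences as log2 differences from limma with their standard error, called where the p-value adjusted over all tested genes (Benjamini-Hochberg) was under 0.05. For a scale per kb of exon, each level was divided by the annotated exon bases of the gene, merged over its transcripts. That length was 2891 bases for Socs3, 2908 for Socs1, 6419 for Cish, 9531 for Socs2 and 11349 for Socs6. It can exceed the length of the transcript made, which sets a gene too low, and ranks and shares between members depend on it. On this scale Socs3 was the highest member, with a mean of 991 over the 18 libraries. Socs1 followed at 176, Socs5 at 136, Cish at 82.5, Socs6 at 72.5, Socs4 at 66.8, Socs7 at 62.9 and Socs2 at 23.1. This order pools both states and does not hold in each group: in PGRN KO M2 cells Socs5 at 157, Cish at 153 and Socs6 at 136 lay above Socs1 at 113, while in PGRN KO M1 cells Cish at 13.7 lay above Socs2 at 11.7 and below the other 6 members. In bulk RNA, fewer cells that express a gene and less RNA per cell cannot be told apart.

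Summed over the 8 members, the level per kb was 2121 ± 147 in PGRN KO, 2142 ± 93.8 in 14-3-3e KO and 2362 ± 22.0 in WT M1 cells, and 926 ± 14.9 in PGRN KO, 1014 ± 62.4 in 14-3-3e KO and 1102 ± 55.7 in WT M2 cells (SD, n = 3 each). All M1 libraries therefore lay above all M2 libraries. Socs3 supplied most of the M1 sum, at 76.8 ± 0.22% in PGRN KO, 77.9 ± 0.28% in 14-3-3e KO and 77.6 ± 4.54% in WT M1 cells. In M2 cells its share was 20.0 ± 1.09% in PGRN KO, 28.7 ± 1.38% in 14-3-3e KO and 31.0 ± 2.65% in WT, and the rest was spread more evenly. Cish, for example, made up 0.64 ± 0.06%, 0.94 ± 0.14% and 0.85 ± 0.07% of the sum in PGRN KO, 14-3-3e KO and WT M1 cells, and 16.6 ± 0.26%, 13.2 ± 1.03% and 13.9 ± 1.33% in the M2 cells of the same genotypes. These shares rest on the merged exon lengths, 6419 bases for Cish and 2891 for Socs3. A shorter length for Cish would raise its share and lower that of Socs3.

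**Figure D1:**
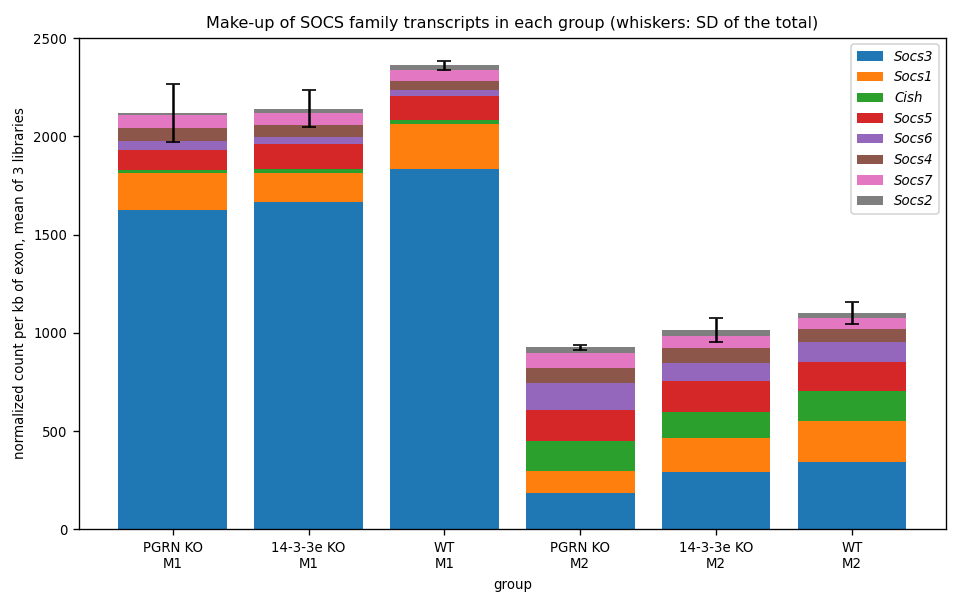
Stacked bars of the mean normalized count per kb of exon (annotated exons merged over transcripts) of each SOCS family gene, for PGRN KO, 14-3-3e KO and WT cells under M1 and then M2 stimulation (3 libraries per group), with whiskers for the SD of the family sum. Socs3 fills 76.8 to 77.9% of each M1 bar and 20.0 to 31.0% of each M2 bar.

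The first comparison asked which feedback inhibitors differed between the M1 and M2 states. In WT cells, 1 of the 8 members was called higher in M1 (Socs3) and 4 were called lower (Cish, Socs6, Socs4 and Socs5). Over all tested genes, 18.9% were called higher and 20% lower in this comparison. The members' median log2 difference was -0.23, against -0.04 over all genes.

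Socs3, which binds gp130-type receptors and their JAKs and limits interleukin-6 signalling, had 4575, 5075 and 4470 normalized counts in PGRN KO M1 libraries and 496, 567 and 546 in PGRN KO M2 libraries. It had 5038, 4844 and 4590 in 14-3-3e KO M1 libraries and 919, 776 and 829 in the M2 libraries of that genotype. WT M1 libraries had 4887, 5505 and 5501, and WT M2 libraries 922, 1075 and 961. Every M1 library lay above every M2 library by a wide margin. The difference was 5.37-fold in WT cells (log2 2.43 ± 0.09, limma adjusted p 5.50e-13), 8.76-fold in PGRN KO cells (3.13 ± 0.09, adjusted p 2.77e-14) and 5.74-fold in 14-3-3e KO cells (2.52 ± 0.09, adjusted p 4.18e-13).

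Cish, the founding member of the family and a STAT5 target that acts at receptors of the interleukin-2 and erythropoietin type, ran the other way. It had 81.8, 105 and 77.6 normalized counts in PGRN KO M1 libraries, against 984, 985 and 984 in PGRN KO M2 libraries. In 14-3-3e KO cells it had 140, 108 and 139 in M1 against 938, 898 and 751 in M2, and in WT cells 120, 143 and 125 in M1 against 1001, 874 and 1083 in M2. The highest M1 library was far below the lowest M2 library, and the highest group mean of Cish was 11.2 times its lowest, the widest range in the family. It was 7.56-fold lower in M1 in WT cells (log2 -2.92 ± 0.14, limma adjusted p 1.92e-11), 11.2-fold lower in PGRN KO cells (-3.48 ± 0.14, adjusted p 1.97e-12) and 6.66-fold lower in 14-3-3e KO cells (-2.74 ± 0.14, adjusted p 5.29e-11). The Cish counts in M1 cells rest on 27 to 696 reads per library.

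Socs6, on chromosome 18, is an adaptor-like member studied mainly at the KIT and insulin receptors. It had 542, 540 and 540 normalized counts in PGRN KO M1 libraries against 1590, 1590 and 1442 in PGRN KO M2 libraries. The 14-3-3e KO libraries had 379, 394 and 410 in M1 against 1165, 1037 and 891 in M2, and the WT libraries 263, 343 and 357 in M1 against 1012, 1109 and 1211 in M2. Again no M1 library reached the M2 range. The gene was 3.48-fold lower in M1 in WT cells (log2 -1.80 ± 0.11, limma adjusted p 1.23e-09), 2.84-fold lower in PGRN KO cells (-1.51 ± 0.11, adjusted p 1.16e-08) and 2.60-fold lower in 14-3-3e KO cells (-1.38 ± 0.11, adjusted p 4.74e-08).

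**Figure D2:**
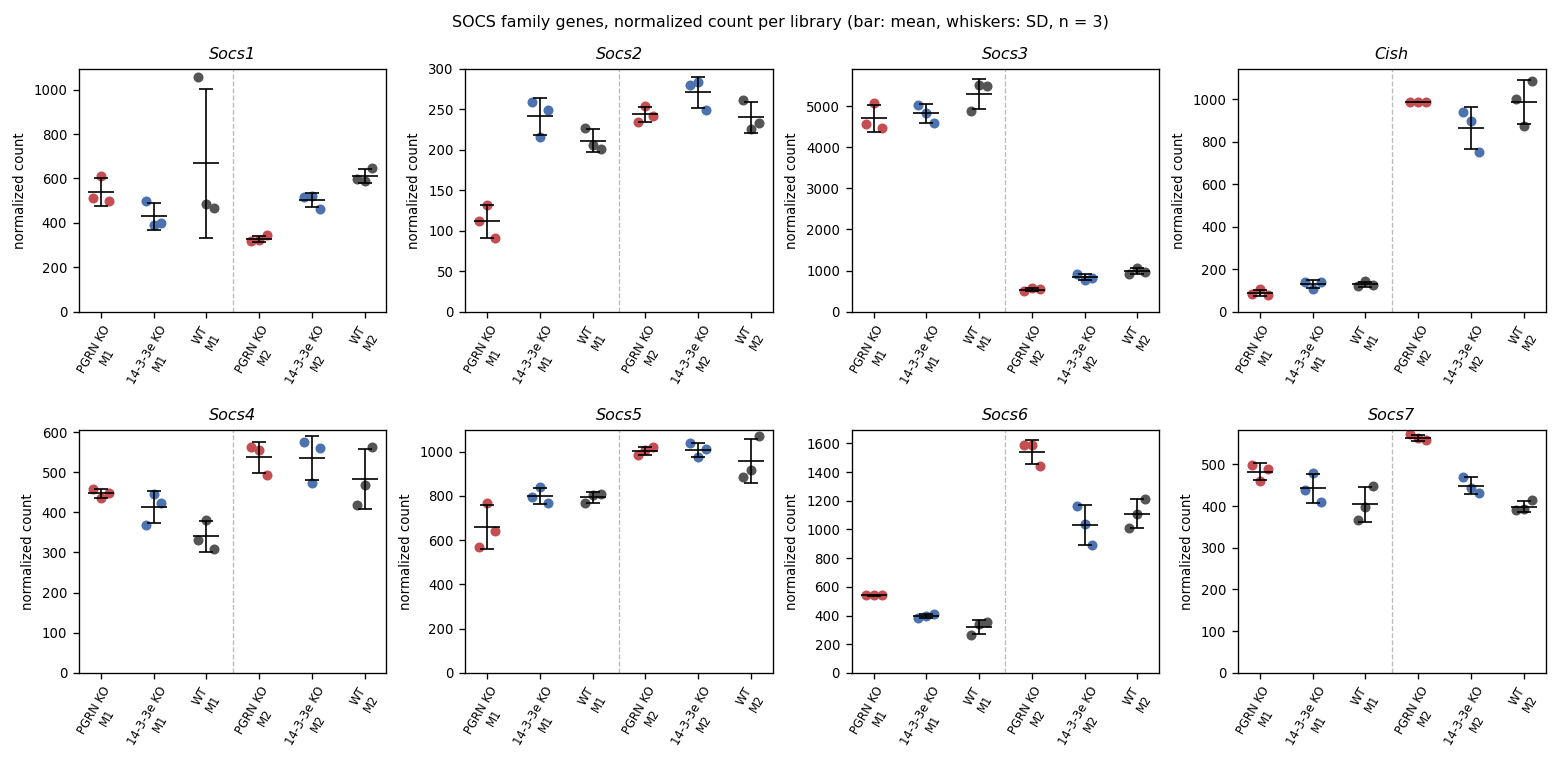
Normalized count (linear axis from 0) of each of the 8 genes in every library, by genotype and stimulation, with the mean as a bar and the SD as whiskers (n = 3). Socs3 stands high in all 9 M1 libraries, Cish and Socs6 stand high in all 9 M2 libraries, and 1 WT M1 library of Socs1 lies at 1057 above the other two at 484 and 466.

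Socs4 and Socs5, a related pair with long N-terminal regions that are linked to the epidermal growth factor receptor, were lower in M1 by smaller amounts. Socs4 averaged 340 ± 37.9 normalized counts in WT M1 cells and 483 ± 73.6 in WT M2 cells (log2 -0.50 ± 0.12, limma adjusted p 0.00277). Socs5 averaged 794 ± 23.5 in WT M1 cells and 959 ± 100 in WT M2 cells (-0.27 ± 0.10, adjusted p 0.0343). Neither pair of WT groups overlapped. The Socs5 call was lost when WT M1 replicate 1 (adjusted p 0.0774), WT M1 replicate 3 (0.0525) or WT M2 replicate 3 (0.171) was left out, and both calls were lost when all libraries were thinned to the shallowest (0.113 for Socs4 and 0.142 for Socs5). Socs7, which binds cytoskeletal adaptors and the insulin receptor substrate, had 366, 398 and 448 in WT M1 libraries and 390, 392 and 413 in WT M2 libraries, a difference of 0.02 with a 95% interval of -0.17 to 0.20 on the log2 scale. Socs2, the growth hormone receptor inhibitor, averaged 211 ± 14.0 in WT M1 cells and 240 ± 19.1 in WT M2 cells, and the interval of that difference, -0.46 to 0.09, also included 0.

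Socs1, the main brake on interferon gamma signalling, rested on 1 library in WT M1 cells. That group had 1057, 484 and 466 normalized counts from 237, 322 and 153 reads, and WT M2 libraries had 596, 590 and 645. The first WT M1 value has an exact Poisson interval of 927 to 1200 (95%, counting error only), which lies above those of the other two libraries (432 to 540 and 395 to 546). The coefficient of variation of Socs1 in WT M1 cells was 50.2%, against 0.0432 to 18.5% in the other 47 combinations of member and group. With all libraries the M1 minus M2 difference in WT cells was 0.02 ± 0.22 (limma adjusted p 0.956), and without that library it was -0.36 ± 0.11 (adjusted p 0.0173), so its direction depends on 1 of 18 libraries. The fit gives each gene a single spread over all groups, so that library also enters the standard error of Socs1 in the other comparisons.

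The same comparison was made within each knockout. In PGRN KO cells 2 members were called higher in M1 (Socs3 and Socs1) and 4 lower (Cish, Socs6, Socs2 and Socs5), where 18% of all genes were called higher and 19.5% lower. Socs1 had 511, 613 and 496 normalized counts in PGRN KO M1 libraries and 320, 322 and 345 in PGRN KO M2 libraries, without overlap (log2 0.71 ± 0.22, limma adjusted p 0.0163). That call was lost without PGRN KO M1 replicate 2 (0.61, adjusted p 0.0687) and with scaling by library totals (0.49, adjusted p 0.0804). Socs2 had 113, 132 and 90.6 in PGRN KO M1 libraries and 235, 254 and 242 in PGRN KO M2 libraries, a 2.19-fold lower level in M1 (-1.13 ± 0.13, adjusted p 1.95e-06). Socs5 averaged 661 ± 99.1 in PGRN KO M1 cells and 1005 ± 17.6 in PGRN KO M2 cells (-0.62 ± 0.10, adjusted p 5.84e-05). Socs4 (-0.26 ± 0.12, adjusted p 0.101) and Socs7 (-0.23 ± 0.09, adjusted p 0.0505) did not pass in these cells, though their M1 libraries lay below their M2 libraries.

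In 14-3-3e KO cells Socs3 was again the 1 member called higher in M1 and Cish, Socs6, Socs4 and Socs5 were the 4 called lower, where 15.6% of all genes were called higher and 14.4% lower. Socs4 averaged 413 ± 39.2 normalized counts in 14-3-3e KO M1 cells and 536 ± 54.9 in 14-3-3e KO M2 cells (log2 -0.37 ± 0.12, limma adjusted p 0.0240). Socs5 averaged 801 ± 35.8 in 14-3-3e KO M1 cells and 1009 ± 32.3 in 14-3-3e KO M2 cells (-0.33 ± 0.10, adjusted p 0.0132). The Socs4 call was lost without 14-3-3e KO M1 replicate 1 (adjusted p 0.116), 14-3-3e KO M2 replicate 1 (0.0983) or 14-3-3e KO M2 replicate 3 (0.0853), and the Socs5 call without 14-3-3e KO M1 replicate 3 (0.0546). Both were lost at the depth of the shallowest library (0.290 for Socs4 and 0.270 for Socs5). Socs1, Socs2 and Socs7 had differences of -0.23, -0.17 and -0.02 on the log2 scale, none past the threshold.

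**Figure D3:**
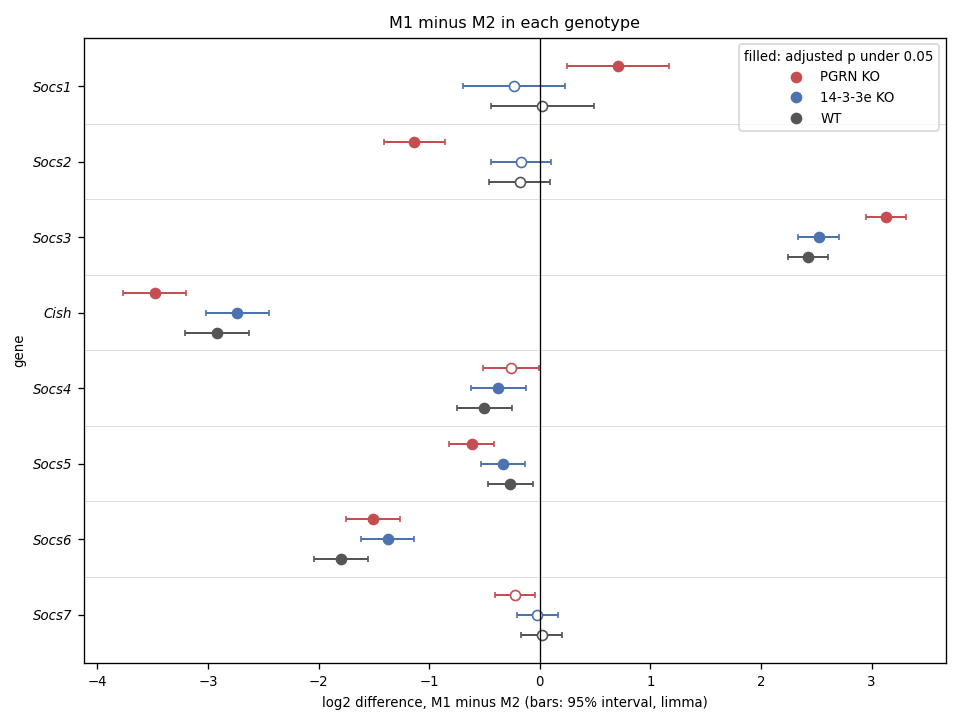
Log2 difference, M1 minus M2, of each SOCS family gene in PGRN KO, 14-3-3e KO and WT cells, with 95% intervals from limma and filled points where the adjusted p was under 0.05. Socs3 lies between 2.43 and 3.13, Cish between -3.48 and -2.74 and Socs6 between -1.80 and -1.38 in the 3 genotypes, while Socs1 and Socs2 pass in PGRN KO cells and in neither of the others.

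The second comparison asked how loss of progranulin changed the family within each state. In M1 cells 3 members were called higher in PGRN KO than in WT (Socs6, Socs4 and Socs7) and 3 lower (Socs2, Cish and Socs5), where 14.2% of all genes were called higher and 11.1% lower. In M2 cells 2 were called higher (Socs7 and Socs6) and 2 lower (Socs3 and Socs1), where 11.1% of all genes were called higher and 8.3% lower. The median log2 difference of the 8 members was -0.19 in M1 and 0.05 in M2, against 0.01 and 0.00 over all genes. With voom weights on the recovered reads, 2 of the 6 calls in M1 remained (Socs2 and Socs6).

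Among the members tied most closely to JAK-STAT feedback, Socs2 had 113, 132 and 90.6 normalized counts in PGRN KO M1 libraries, against 227, 206 and 201 in WT M1 libraries. All PGRN KO libraries were lower, by 1.90-fold (log2 -0.93 ± 0.13, limma adjusted p 7.41e-05). In M2 cells it had 235, 254 and 242 in PGRN KO against 262, 226 and 233 in WT, and the groups overlapped (0.02 ± 0.13, 95% interval -0.25 to 0.30). The difference between these effects, M1 minus M2, was -0.95 ± 0.18 and passed its own test (adjusted p 0.0176), at a background of 0.469% of genes called higher and 0.783% called lower for that test. The call for Socs2 was lost without PGRN KO M2 replicate 3 (adjusted p 0.0517) and in 3 other settings, with values of -1.05 to -0.95 and adjusted p up to 0.140.

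Socs3 showed its genotype difference in M2 cells, with 496, 567 and 546 normalized counts in PGRN KO against 922, 1075 and 961 in WT. All PGRN KO M2 libraries were lower, by 1.84-fold (log2 -0.88 ± 0.09, limma adjusted p 4.24e-06). In M1 cells the PGRN KO libraries, at 4470 to 5075, overlapped the WT libraries, at 4887 to 5505 (-0.17 ± 0.09, adjusted p 0.168). The difference between the effects, M1 minus M2, was 0.71 ± 0.12 (adjusted p 0.0107), a call that was lost with scaling by library totals (0.66, adjusted p 0.0556). Socs2 and Socs3 were the 2 members whose progranulin effect differed between states by this test.

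Socs1 was also lower in PGRN KO M2 cells, at 320, 322 and 345 normalized counts against 596, 590 and 645 in WT M2 cells, a 1.85-fold difference without overlap (log2 -0.89 ± 0.22, limma adjusted p 0.00846). In M1 cells it had 511, 613 and 496 in PGRN KO against 1057, 484 and 466 in WT, and the knockout values lay between the WT values (-0.21 ± 0.22, adjusted p 0.544). Without WT M1 replicate 1 that difference was 0.18 (adjusted p 0.285), so its sign rests on 1 library. The M1 minus M2 difference of the effect was 0.68 ± 0.31 (adjusted p 0.343), and 1.07 ± 0.15 (adjusted p 0.00185) without WT M1 replicate 1. Cish was 1.47-fold lower in PGRN KO M1 cells, at 81.8, 105 and 77.6 against 120, 143 and 125 in WT M1 cells, without overlap (-0.56 ± 0.14, adjusted p 0.00619). Under voom weights on the recovered reads that call was lost (adjusted p 0.0546). In M2 cells Cish averaged 984 ± 0.43 in PGRN KO and 986 ± 105 in WT, and the 95% interval of the difference was -0.28 to 0.29.

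Of the other members, Socs6 was higher in PGRN KO in both states. Its values were 542, 540 and 540 normalized counts in PGRN KO M1 libraries against 263, 343 and 357 in WT M1 libraries, a 1.70-fold difference (log2 0.76 ± 0.11, limma adjusted p 0.000139). In M2 libraries they were 1590, 1590 and 1442 in PGRN KO against 1012, 1109 and 1211 in WT, a 1.39-fold difference (0.47 ± 0.11, adjusted p 0.00718). No PGRN KO library reached down to the WT range in either state. Both calls held in every alternative run.

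Socs7 had 499, 461 and 488 normalized counts in PGRN KO M1 libraries against 366, 398 and 448 in WT M1 libraries (log2 0.26 ± 0.09, limma adjusted p 0.0361). In M2 it had 572, 562 and 558 in PGRN KO against 390, 392 and 413 in WT (0.50 ± 0.09, adjusted p 0.000646). The groups did not overlap in either state. The M2 call held in every alternative run. The M1 call was lost without any 1 of 4 libraries (PGRN KO M1 replicates 1 and 3 and WT M1 replicates 1 and 2, adjusted p 0.0588 to 0.119) and was 0.10 (adjusted p 0.668) at the depth of the shallowest library.

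Socs4 averaged 447 ± 11.3 normalized counts in PGRN KO M1 cells and 340 ± 37.9 in WT M1 cells (log2 0.40 ± 0.12, limma adjusted p 0.0208). Socs5 averaged 661 ± 99.1 in PGRN KO M1 cells and 794 ± 23.5 in WT M1 cells (-0.28 ± 0.10, adjusted p 0.0441). Leaving out PGRN KO M1 replicate 1 or 3 or WT M1 replicate 3 ended the Socs4 call (adjusted p 0.0562 to 0.0763). Leaving out any of those libraries or WT M1 replicate 2 ended the Socs5 call (adjusted p 0.0740 to 0.225). It was -0.18 without PGRN KO M1 replicate 1. In M2 cells neither passed: Socs4 had 564, 555 and 492 in PGRN KO against 418, 468 and 563 in WT, and Socs5 averaged 1005 ± 17.6 in PGRN KO against 959 ± 100 in WT. Across the PGRN KO comparisons the stromal sum was lower in the PGRN KO M2 libraries than in all WT M2 libraries and overlapped WT narrowly in M1. In M2, Col1a1 (log2 -0.83) and Col1a2 (-0.70) were called lower and Pdgfra (0.53) was called higher. Col3a1, Dcn and Lum were not called. The sum of 6 neutrophil markers was 36.8 to 93.6 CPM in PGRN KO M1 cells against 115 to 263 CPM in WT M1 cells, with the defining marker Ly6g at 0 in 11 of the 18 libraries. The sum of 6 M2 markers was 96.6 to 133 CPM in PGRN KO M1 cells against 151 to 169 CPM in WT M1 cells, and 5106 to 5344 CPM in PGRN KO M2 cells against 7468 to 8313 CPM in WT M2 cells, without overlap in either state. Of these markers 5 of 6 were called lower in PGRN KO in M1 and 3 of 6 in M2, where 11.1% and 8.3% of all genes were called lower. In M2, the state in which Socs1 and Socs3 were lower, Mgl2 (log2 -0.71), Chil3 (0.27) and Mrc1 (0.11) were not called. The part of the stromal, neutrophil and M2 marker sums in these differences was not tested.

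**Figure D4:**
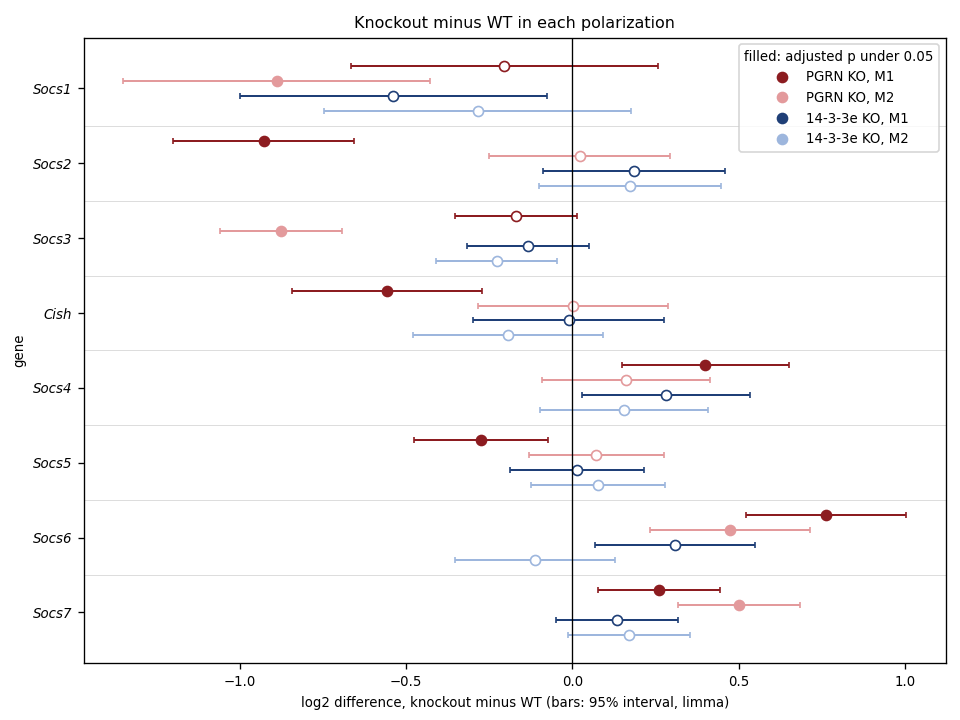
Log2 difference, knockout minus WT, of each SOCS family gene for PGRN KO and 14-3-3e KO in M1 and M2 cells, with 95% intervals from limma and filled points where the adjusted p was under 0.05. PGRN KO has filled points at -0.93 (Socs2, M1), -0.88 (Socs3, M2) and 0.76 (Socs6, M1) among others, and every 14-3-3e KO point is open.

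The third comparison set the myeloid 14-3-3e knockout against the same WT libraries, so its differences and those of PGRN KO share their reference values. No member was called in M1 cells by limma, where 12% of all genes were called higher and 9.31% lower, and none in M2 cells, where 3.32% were called higher and 3.37% lower. At an unadjusted p under 0.05 there were 3 members in M1 and 1 in M2, and voom weights on the recovered reads gave 0 calls in both states. The count in M1 was 3 without WT M1 replicate 2, where 30.6% of all genes were called in either direction, and 2 without WT M1 replicate 3, where 19.8% were, against 21.3% with all libraries.

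The members nearest the threshold in M1 cells were Socs6, Socs1 and Socs4. Socs6 had 379, 394 and 410 normalized counts in 14-3-3e KO M1 libraries against 263, 343 and 357 in WT M1 libraries, and the groups did not overlap (log2 0.31 ± 0.11, limma adjusted p 0.0630). Socs1 had 498, 390 and 400 in 14-3-3e KO against 1057, 484 and 466 in WT (-0.54 ± 0.22, adjusted p 0.0890), and the difference was -0.15 (adjusted p 0.394) without the high WT M1 library. Socs4 had 369, 446 and 423 in 14-3-3e KO against 330, 382 and 308 in WT, with overlap (0.28 ± 0.12, adjusted p 0.102). In M2 cells Socs3 was the nearest, with 919, 776 and 829 in 14-3-3e KO against 922, 1075 and 961 in WT (-0.23 ± 0.09, adjusted p 0.124). For Cish the 95% interval of the 14-3-3e KO difference was -0.30 to 0.27 in M1 and -0.48 to 0.09 in M2, and for Socs5 it was -0.19 to 0.22 in M1 and -0.12 to 0.28 in M2. For the difference of the 14-3-3e KO effect between states no member passed by limma, and voom gave 0. In that test 1 member had an unadjusted p under 0.05 (Socs6, 0.42 ± 0.16, adjusted p 0.360), and 0.141% of all genes were called higher and 0.145% lower.

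The knockouts were also set against each other, a difference of means that uses no WT value. Its standard error still comes from the fit of all 18 libraries, WT included. In M1 cells 3 members were called higher in 14-3-3e KO than in PGRN KO (Socs2, Cish and Socs5) and 1 lower (Socs6), where 12.5% of all genes were called higher and 12.5% lower. Socs2 had 258, 215 and 250 normalized counts in 14-3-3e KO M1 libraries against 113, 132 and 90.6 in PGRN KO M1 libraries, a 2.17-fold higher level (log2 1.12 ± 0.13, limma adjusted p 7.48e-06). Cish had 140, 108 and 139 in 14-3-3e KO against 81.8, 105 and 77.6 in PGRN KO (0.55 ± 0.14, adjusted p 0.00624), with the lowest 14-3-3e KO library close to the highest PGRN KO library. Socs6 was 0.45 ± 0.11 lower on the log2 scale in 14-3-3e KO (adjusted p 0.00677), a call that was lost with scaling by library totals (adjusted p 0.103). The Socs5 difference of 0.29 ± 0.10 (adjusted p 0.0350) was lost without any 1 of 5 of the 6 libraries, all but PGRN KO M1 replicate 2 (adjusted p 0.0521 to 0.200).

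In M2 cells 1 member was called higher in 14-3-3e KO than in PGRN KO (Socs3) and 2 lower (Socs6 and Socs7), where 8.29% of all genes were called higher and 9.92% lower. Socs3 had 919, 776 and 829 normalized counts in 14-3-3e KO M2 libraries against 496, 567 and 546 in PGRN KO M2 libraries, a 1.57-fold higher level without overlap (log2 0.65 ± 0.09, limma adjusted p 4.44e-05). Socs6 averaged 1031 ± 137 in 14-3-3e KO and 1541 ± 85.2 in PGRN KO (-0.59 ± 0.11, adjusted p 0.00133), and Socs7 averaged 449 ± 19.9 in 14-3-3e KO and 564 ± 7.07 in PGRN KO (-0.33 ± 0.09, adjusted p 0.0119). The Socs7 call was lost without 14-3-3e KO M2 replicate 3 (adjusted p 0.0552), at the depth of the shallowest library (0.134) and with scaling by library totals, where the difference was -0.15 (0.326). Socs1 averaged 501 ± 31.6 in 14-3-3e KO and 329 ± 13.8 in PGRN KO without overlap, but missed the threshold (0.60 ± 0.22, adjusted p 0.0677). The standard error of that fit includes the uneven WT M1 libraries of Socs1. With only these groups in the fit Socs1 passed (0.60 ± 0.08, limma adjusted p 0.000613). The stromal sum was higher in every 14-3-3e KO library than in any PGRN KO library of the same state. Its collagens Col1a1, Col1a2 and Col3a1 were called higher in both states. Pdgfra, Dcn and Lum were called in neither, with log2 differences of -0.23, -0.36 and -0.20 in M2.

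Ordered by mean over the 6 groups, Socs3 ran from WT M1 through 14-3-3e KO M1 and PGRN KO M1 to WT M2, 14-3-3e KO M2 and PGRN KO M2. In this order the 3 M1 groups overlapped their neighbours and the 3 M2 groups were separate from each other, though the highest 14-3-3e KO M2 library, at 919, nearly met the lowest WT M2 library, at 922. Socs6 ran from PGRN KO M2 through WT M2, 14-3-3e KO M2, PGRN KO M1 and 14-3-3e KO M1 to WT M1. WT M2 and 14-3-3e KO M2 were the 1 pair of neighbours whose libraries overlapped. Cish ran from WT M2 to PGRN KO M1, with overlap between WT M2 and PGRN KO M2 and between WT M1 and 14-3-3e KO M1. For Socs2 the first 5 groups formed an overlapping run from 14-3-3e KO M2 to WT M1, and PGRN KO M1 stood below all of them. For Socs1 the first 5, from WT M1 to 14-3-3e KO M1, overlapped in turn, and PGRN KO M2 stood below them. WT M1 came first through 1 library at 1057, while its others, at 484 and 466, lay below all WT M2 libraries. The Socs1 ratio given below also includes that library. Socs4 overlapped at every step, Socs5 was highest in the 3 M2 groups, and Socs7 was highest in PGRN KO M2. The ratio of the highest to the lowest group mean was 9.88 for Socs3, 4.80 for Socs6, 2.43 for Socs2, 2.03 for Socs1, 1.58 for Socs4, 1.53 for Socs5 and 1.42 for Socs7.

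The genes around the family in the pathway were counted from lists of ligands, receptors, JAKs, STATs, other inhibitors and ubiquitin ligase parts. In WT cells 8 of 14 ligands were called higher in M1 than in M2 and 1 lower, where 18.9% of all genes were called higher and 20% lower. The 8 include Il12b and Il13, at only 3 and 6 reads over the WT M1 libraries and a mean of 0 in WT M2. Il15, a cytokine for lymphocytes, averaged 493 ± 104 normalized counts in WT M1 cells and 58.0 ± 4.14 in WT M2 cells (log2 3.05 ± 0.14, limma adjusted p 1.20e-11). Il27, which signals through gp130, had 157 reads over the WT M1 libraries and 14 over the WT M2 libraries (adjusted p 3.67e-08). Ifnb1, interferon beta, had 45 reads over the WT M1 libraries and 0 over the WT M2 libraries, at least 14.2-fold higher against a floor of 3 reads per library. Among receptors 13 of 22 were called higher and 4 lower. The IL-4 receptor chains Il4ra (13184 ± 670 in WT M1 and 1817 ± 229 in WT M2, 2.87 ± 0.12, adjusted p 4.93e-12) and Il2rg (2.61 ± 0.10, adjusted p 1.39e-12) were higher in M1, as was the interleukin-10 receptor gene Il10ra (2.03 ± 0.09, adjusted p 1.91e-11).

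Of the 4 JAKs, Jak3 (log2 1.42 ± 0.10, limma adjusted p 2.76e-09) and Tyk2 (0.37 ± 0.09, adjusted p 0.00240) were higher in WT M1 than in WT M2 cells and none was lower. Of the 7 STATs 5 were higher and none lower. Stat2 (3.64 ± 0.12, adjusted p 1.93e-13) and Stat3, the mediator of interleukin-6 and interleukin-10 (0.76 ± 0.06, adjusted p 3.45e-08), were higher too. The 13 other inhibitors split evenly, with 5 higher and 5 lower. Usp18, which limits interferon receptor signalling, averaged 10843 ± 1789 in WT M1 and 166 ± 19.5 in WT M2 (6.01 ± 0.12, adjusted p 1.34e-15). The phosphatase gene Ptpn6 was 2.15 ± 0.09 higher (adjusted p 2.70e-12), and the ubiquitin ligase gene Cblb had a difference of -2.13 ± 0.14 (adjusted p 2.23e-09).

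Of 7 ubiquitin ligase parts listed as partners of SOCS box proteins, 3 were called higher in WT M1 than in WT M2 cells and 1 lower. The log2 difference was 0.51 ± 0.09 for Ube2f (limma adjusted p 0.000269), 0.64 ± 0.12 for Tceb1, elongin C (adjusted p 0.000382), and -0.26 ± 0.09 for Cul2 (adjusted p 0.0202). Cul5, the other cullin listed (-0.18 ± 0.09, limma adjusted p 0.128), and Rnf7 (-0.15 ± 0.10, adjusted p 0.260) were not called. Of 24 other genes whose proteins carry a SOCS box, 20 were tested, 7 were called higher and 4 lower. Wsb2 had a difference of -0.79 ± 0.07 (adjusted p 7.06e-08) and Asb2 of 2.06 ± 0.34 (adjusted p 0.000115), and Asb10 had 0 reads over the WT M1 libraries against 49 over the WT M2 libraries, at least 1.72-fold lower against a floor of 3 reads per library. The median log2 difference, M1 minus M2 in WT, was 0.58 for receptors, 0.29 for JAKs, 0.76 for STATs, 0.07 for other inhibitors and 0.27 for ligase partners, against -0.04 over all genes.

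In PGRN KO M1 cells the same lists gave, against WT M1 cells, 2 ligands higher and 3 lower and 11 receptors higher and 2 lower, where 14.2% of all genes were called higher and 11.1% lower. They gave 3 JAKs and 3 STATs higher and none lower, 6 other inhibitors higher and 1 lower, 2 ligase partners lower, and 4 other SOCS box genes higher and 2 lower. Tyk2 averaged 1993 ± 115 normalized counts in PGRN KO M1 cells and 1272 ± 97.3 in WT M1 cells (log2 0.65 ± 0.09, limma adjusted p 5.10e-05). Jak3 (0.46 ± 0.10, adjusted p 0.00233) and Stat6, the IL-4 STAT (0.51 ± 0.11, adjusted p 0.00194), were higher as well. The receptor genes Csf2rb2 (1.81 ± 0.20, adjusted p 1.56e-05) and Csf2rb (1.35 ± 0.18, adjusted p 5.71e-05) are near-identical copies, so reads may be split between them. Csf1, the gene of M-CSF, averaged 3783 ± 496 in PGRN KO M1 and 6691 ± 1047 in WT M1 (-0.82 ± 0.12, adjusted p 0.000113), and Csf3 had 6 reads over the PGRN KO M1 libraries and 46 over the WT M1 libraries. Il12b, called higher, and Il13, called lower, had only 3 and 6 reads over the WT M1 libraries. The phosphatase gene Ptpn1 (0.68 ± 0.09, adjusted p 3.30e-05), the adaptor gene Sh2b3 (0.44 ± 0.09, adjusted p 0.00155), Spsb4 (1.51 ± 0.19, adjusted p 2.78e-05) and Wsb2 (0.53 ± 0.07, adjusted p 3.86e-05) were higher, and Tceb1 (-0.47 ± 0.12, adjusted p 0.00846) and Cul5 (-0.26 ± 0.09, adjusted p 0.0370) were lower. List medians were 0.34 for receptors, 0.39 for JAKs, 0.26 for STATs, 0.21 for other inhibitors and -0.18 for ligase partners, against 0.01 over all genes.

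In PGRN KO M2 cells, against WT M2 cells, no ligand was higher and 4 were lower, 11 receptors were higher and 1 lower, and 3 JAKs and 5 STATs were higher and none lower, where 11.1% of all genes were called higher and 8.3% lower. Of the rest, 7 other inhibitors were higher and 1 lower, no ligase partner was called, and 6 other SOCS box genes were higher and none lower. Il10, an anti-inflammatory cytokine, averaged 8.70 ± 3.15 normalized counts in PGRN KO M2 and 42.8 ± 20.8 in WT M2 (log2 -2.09 ± 0.32, limma adjusted p 0.000250), from 45 reads in PGRN KO and 150 in WT. Lif had a difference of -0.91 ± 0.27 (adjusted p 0.0262). Il6st, which encodes gp130, averaged 9488 ± 678 in PGRN KO M2 and 5293 ± 395 in WT M2 (0.84 ± 0.09, adjusted p 1.28e-05), and Il10ra was 0.73 ± 0.09 higher (adjusted p 4.51e-05). Stat5b (0.40 ± 0.07, adjusted p 0.000665), Tyk2 (0.57 ± 0.09, adjusted p 0.000223) and Jak1 (0.51 ± 0.11, adjusted p 0.00275) were higher. The phosphatase genes Ptprc (0.90 ± 0.14, adjusted p 0.000199) and Ptpn1 (0.56 ± 0.09, adjusted p 0.000240), and Wsb2 (0.77 ± 0.07, adjusted p 1.58e-06) and Spsb4 (0.91 ± 0.19, adjusted p 0.00261), were higher too. List medians were 0.34 for receptors, 0.46 for JAKs, 0.40 for STATs, 0.28 for other inhibitors and -0.16 for ligase partners, against 0.00 over all genes.

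In 14-3-3e KO M1 cells, against WT M1 cells, 1 ligand was higher and 3 lower, 1 receptor higher and 4 lower, and 1 JAK and 1 STAT higher, where 12% of all genes were called higher and 9.31% lower. The remaining lists gave 4 other inhibitors higher and 2 lower, 2 ligase partners lower, and 1 further SOCS box gene higher and 1 lower. Il4ra averaged 7334 ± 877 normalized counts in 14-3-3e KO M1 and 13184 ± 670 in WT M1 (log2 -0.85 ± 0.12, limma adjusted p 0.000281), and Ifngr1, a chain of the interferon gamma receptor, averaged 1969 ± 118 in 14-3-3e KO and 2558 ± 172 in WT (-0.38 ± 0.07, adjusted p 0.00241). Jak1 (0.43 ± 0.11, adjusted p 0.0104), the phosphatase gene Ptpn11 (0.70 ± 0.11, adjusted p 0.000601), the ubiquitin ligase gene Cbl (1.31 ± 0.34, adjusted p 0.0153) and Wsb2 (0.31 ± 0.07, adjusted p 0.00613) were higher. Tceb1 (-0.43 ± 0.12, adjusted p 0.0195), Tceb2 (elongin B, -0.46 ± 0.15, adjusted p 0.0362) and Spsb2 (-0.80 ± 0.14, adjusted p 0.00125) were lower. The 1 ligand called higher, Il12b, had 139 reads over the 14-3-3e KO M1 libraries and 3 over the WT M1 libraries, which were shallower. Il13, among the 3 called lower, was at 5 reads in 14-3-3e KO M1 and 6 in WT M1. List medians were 0.14 for receptors, 0.16 for JAKs, 0.13 for STATs, 0.11 for other inhibitors and -0.28 for ligase partners, against 0.07 over all genes.

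In 14-3-3e KO M2 cells, against WT M2 cells, 5 receptors were higher and 1 lower, 2 STATs were higher, 1 ligase partner and 2 other SOCS box genes were lower, and no ligand, JAK or other inhibitor was called. Of all genes 3.32% were called higher and 3.37% lower. Ifnar1, a chain of the type I interferon receptor, averaged 3253 ± 107 normalized counts in 14-3-3e KO M2 and 2003 ± 110 in WT M2 (log2 0.70 ± 0.08, limma adjusted p 5.16e-05), and Csf3r averaged 2503 ± 219 in 14-3-3e KO and 1396 ± 114 in WT (0.84 ± 0.10, adjusted p 5.92e-05). Stat2 (0.57 ± 0.12, adjusted p 0.0104) was higher, and Rnf7 (-0.36 ± 0.10, adjusted p 0.0396), Spsb2 (-0.60 ± 0.14, adjusted p 0.0166) and Wsb2 (-0.25 ± 0.07, adjusted p 0.0380) were lower. List medians were 0.12 for receptors, 0.17 for JAKs, 0.19 for STATs, 0.11 for other inhibitors and -0.25 for ligase partners, against 0.00 over all genes.

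Finally, the genes whose pattern over the 6 group means was most like that of each member were listed among 11249 genes with a mean of at least 50 normalized counts, by the root mean square (rms) difference of the centred log2 group means. For Socs3 these were Il1rn (rms 0.18), Ehd1 (0.18) and Bcl3 (0.19), against a spread of Socs3 itself of 1.37 on the same scale. For Cish they were Aif1l (0.25), Cytip (0.28) and Dusp4 (0.31), against a spread of 1.53, and this nearest rms was the largest of the 8 members. For Socs6 they were Slc17a5 (0.06), Gcnt1 (0.09) and Rin3 (0.10), against 0.83, the closest matches relative to a member's own spread. For Socs2 they included Dab2ip (0.11) and Pros1 (0.11), against 0.43. Those of Socs1 were Col11a2 (0.10), Mrps16 (0.11) and Enkd1 (0.11), against 0.32. Those of Socs4 were Kat7, Hmgxb4 and Cep250, those of Socs5 included Fam110b and Tmtc4, and those of Socs7 were Pcmtd2, Braf and Wdr13, at an rms of 0.03 to 0.05 against spreads of 0.17 to 0.23. For Socs1 the pattern includes WT M1 replicate 1, without which its M1 minus M2 difference in WT cells went from 0.02 to -0.36. The matches to Socs1 were not searched again without that library. The 6 points share libraries and size factors, and a likeness over them is a description with no test.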

How the data were processed

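RNA-seq of total RNA from 18 macrophage libraries was deposited as 1 table of log2 values. Per the submitters' processing notes the tools were STAR, RSEM 1.3.1 and DESeq2, and GRCh38 is the build named there although the gene identifiers are of mouse. The deposited log2 values were log2(normalized count + 1): subtracting 1 after removing the log gave whole multiples of the value of 1 read in each library (100% within 0.1 read), which gave the reads. Column names matched the labels for all 18 libraries. Of 43309 identifiers, 42425 matched GENCODE M21.

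The log2 values were fitted with limma 3.58.1 (R 4.3.3; trend and robust, pseudocount 1) in 1 model of 6 groups. The 21336 genes tested reached a normalized count of 1 in 3 libraries or more, and 11 comparisons were adjusted by Benjamini-Hochberg over all genes. Figures were drawn with matplotlib 3.10.9. The code was tested on simulated data. The members, lists and alternatives were chosen with earlier results of these data known. From each pathway list, up to 3 called genes of smallest p were named for M1 against M2 in WT and up to 2 for each knockout against WT. Some genes that this rule or the likeness rule would name are not reported here. Replicate numbers paired the 14-3-3e KO M1 and M2 libraries in the data (correlation of deviations 0.367 to 0.518 in all 3 pairs) and no other compared groups; the pairing comes from these correlations and not from the labels. Alternatives were another pseudocount, other filters, a replicate block, voom on the reads, thinning to the shallowest library, library totals, and libraries left out.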

Additional observations from a re-analysis of the deposited data

Results flagged for a closer look

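The effect of the progranulin knockout differed between the M1 and M2 states for 2 members, by limma's test of the difference itself. Of all genes, 0.469% were called higher and 0.783% lower in that test. For Socs2 the difference of the effects, M1 minus M2, was -0.95 ± 0.18 on the log2 scale (adjusted p 0.0176): the knockout effect was -0.93 in M1 cells and 0.02 in M2 cells. For Socs3 it was 0.71 ± 0.12 (adjusted p 0.0107): the knockout effect was -0.17 in M1 cells and -0.88 in M2 cells. The Socs2 call was lost in some alternative runs, with limma adjusted p from 0.0514 to 0.140. The Socs3 call was lost with scaling by library totals (limma adjusted p 0.0556). With 3 libraries in each group no group was checked for a sample far from the others by Dixon's test.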

How the results depend on the processing

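Over 88 member-comparisons, 35 of them called, 1424 values from alternatives gave 1339 on the same side of the threshold (1293 in the same direction and 46 that changed sign with neither value called), 59 calls lost, 25 gained and 1 turned round: Socs1, M1 minus M2 in WT cells, was -0.36 without WT M1 replicate 1 and up to 0.23 without another library. A replicate block changed no call, and neither did the block in 14-3-3e KO cells alone, which was chosen after seeing the data (5 members called, M1 against M2). With only the groups compared in the fit, calls were 3 for M1 against M2 in WT (24.5% of all genes called in either direction, against 38.9% in the fit of all groups), 2 for PGRN KO against WT in M1 (10% against 25.3%) and 1 for the difference of the PGRN KO effects (0.436% against 1.25%), while all 8 members were called for M1 against M2 in PGRN KO (42.4% against 37.5%), with Socs4 and Socs7 gained. Thinning gave 3 for M1 against M2 in WT (32.5% of all genes), 3 in 14-3-3e KO (26.1% against 30%), 3 for PGRN KO against WT in M1 (18.7%) and 1 for the difference of the PGRN KO effects (0.685%). Voom gave 2 for PGRN KO against WT in M1 (19.3%). Library totals, which shifted the median of all genes by -0.19 to 0.15, gave 1 for the difference of the PGRN KO effects (0.937%) and 2 for 14-3-3e KO against WT in M1 (19.5% against 21.3%). The counts were 1 (0.917%) and 3 (31.6%) without WT M2 replicate 3 and WT M1 replicate 2, which hold the most ribosomal RNA-like reads. A filter of 50 normalized counts gave 1 for 14-3-3e KO against WT in M1 (36.8%). Leaving out 1 library gave 3 to 6 members for PGRN KO against WT in M1 (18.3 to 30.3%), 1 to 3 for the difference of the PGRN KO effects (0.471 to 3.1%) and 0 to 3 for 14-3-3e KO against WT in M1 (10.7 to 30.6%). The causes were not tested. The shallowest library, WT M1 replicate 1, has 5157638 reads and 27 reads of Cish, which limits small differences.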
